A study of Mus musculus with 70 samples.

Results

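Daily rhythms of gene expression were measured in livers of offspring, aged 16 weeks, whose dams had eaten a high-fat diet (HFD).
The 18 HFD libraries of the 16-week count table were used, of 70 libraries in the series, 1 library per mouse and 3 mice at each of ZT1, ZT5, ZT9, ZT13, ZT17 and ZT21.
ZT is zeitgeber time, in hours after lights on under 12 h of light and 12 h of dark.
The mice were male wild-type C57BL/6 offspring.
According to the authors, the mice of a time point came from different litters.
Their dams ate D12492, with 60% of its energy as fat, from 5 weeks before mating and through pregnancy, and the dams of the comparison group (Ctr) ate AIN-93G, with 15.8%.
All offspring were kept in litters of 6, weaned at day 21 and given standard chow after birth, so the diets compared are those of the mothers.
The 18 Ctr livers at 16 weeks and the 18 HFD livers at 4 weeks are used only for comparison.
The HFD libraries at 16 weeks held between 15263275 and 17133063 counts.

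The liver clock is a loop in which BMAL1, encoded by Arntl, pairs with CLOCK or NPAS2 and binds E-boxes in the promoters of its own repressors, the Per and Cry genes.
In a connected loop the nuclear receptors REV-ERB (Nr1d1 and Nr1d2) and ROR (Rora) act in opposite directions on the RORE elements of Arntl and Nfil3, and the factors DBP, TEF and HLF bind D-boxes.
In the liver these factors, together with feeding, body temperature and hormones, time genes of lipid, glucose, bile acid and drug metabolism across the day.

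Each gene's counts were fitted with a cosine and a sine of 24 h and tested against no rhythm, and a gene is called rhythmic at a Benjamini-Hochberg adjusted p below 0.05 over all genes tested.
The amplitude is the distance from the mean to the peak of the fitted curve in log2 units, and the peak is given in h after lights on.
Levels are given in CPM, counts scaled to a common library total, which for single genes was first multiplied by its TMM factor, while sums over marker and muscle genes, Alb and Acta1 use the total alone.
Whether counting took account of the strand of the reads is not given in the sources used here, so genes that share exonic bases with another protein-coding gene are uncertain.
These were 497 of the genes called rhythmic (17.8%, against 20.7% of all genes tested), and include Nr1d1 (with Thra), Dbp (Sphk2), Elovl3 (Pitx3), Usp2, Hspa1a, Pdia6, Stat5a, Sqstm1, Becn1, Naprt, Elob, G6pdx, Mrpl36, Mrps25, Ndufb6, Nrap and the mitochondrial Atp8 and Co3 genes.
Close copies (Mup8, Cyp2a4 and Cyp2a5, the Saa genes, Hspa1a and Hspa1b, Mt1) share sequence, so that their counts may mix.

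Hepatocyte markers dominated every library.
The 6 hepatocyte genes of the marker list summed to between 101000 and 125000 CPM (median 109000), led by Alb at 80200 CPM.
The 8 Kupffer cell markers summed to 185 to 475 CPM (median 318), the 8 endothelial markers to 150.0 to 323 CPM (median 203) and the 8 lymphocyte markers to 1.58 to 8.11 CPM (median 3.11).
Ly6g, a defining neutrophil gene, had 0 counts in all 18 libraries.
Of all markers tested, Cps1 among 6 of hepatocytes, C1qa among 8 of Kupffer cells, Des among 8 of stellate cells and Krt19 and Sox9 among 6 of cholangiocytes were called rhythmic, against 16.0% of all genes tested, and none of 8 endothelial, 8 lymphocyte, 4 neutrophil, 5 erythroid, 2 acinar and 1 adipocyte genes by edgeR.
At an unadjusted p below 0.05 these groups held 1, 2, 1, 0, 2 and 1 genes, and by DESeq2 0, 2, 0, 0, 1 and 0 were called.
The call of Cps1 was lost in 4 fits without a single mouse (up to 0.0842, without ZT17 replicate 2) and was 0.375 without ZT5, and that of C1qa was 0.089 without ZT9. Des kept its call without ZT21 replicate 2, but its amplitude went from 1.4 to 0.517. By DESeq2 0 of the 8 stellate markers were called.
No marker count moved by more than 2 genes in the fits without a mouse or a time point.
In bulk liver, fewer cells of a type and less RNA per cell cannot be told apart.

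A single library stood apart in its gene content.
In the ZT21 library of replicate 2, 15 genes of skeletal muscle, a list added after the values were seen, summed to 1730 CPM, against 10.1 to 23 CPM (median 15) in the other 17 HFD livers and 9.8 to 40.4 CPM (median 17.3) in the Ctr livers.
The most abundant of them was the muscle actin Acta1 at 451 CPM.
The same library had the most genes detected, 19155, and the highest sums of stellate (520 CPM), erythroid (550 CPM) and adipocyte markers (105 CPM, led by the adipose serine protease Cfd, against at most 18 CPM elsewhere).
Without it 2431 of the 2793 rhythmic genes were still called (87.0%), and of the 362 that were not, 150 peaked between ZT19 and ZT23.

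The 3 HFD libraries at ZT9 stood apart in base composition.
Across genes within a library, the rank correlation of a gene's deviation from its mean level with its GC content was -0.507, -0.327 and -0.339 in these 3, and between -0.125 and 0.332 in the other 15, a description over genes that are not independent replicates.
In the Ctr livers it lay between -0.174 and 0.330 at all times.
The noncoding RNAs CT010467.1 and Gm23935 took 0.0216% to 0.0599% of the counts at ZT9 in HFD and 0.584% to 0.766% at ZT17.
The mitochondrial genome gave 9.33% of the counts in the ZT9 library of replicate 1 and 5.35% to 7.45% in the others.
Most named genes with their highest or lowest level at ZT9 are therefore also given with the amplitude of the fit without it. The part of composition in them was not tested.

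**Figure D1:**
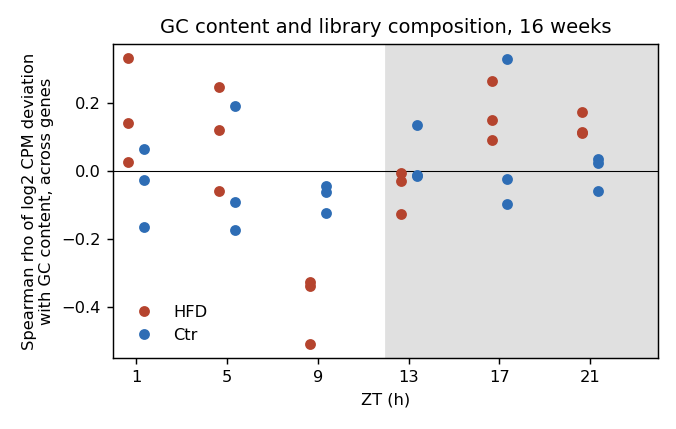
Spearman's rho between a gene's deviation from its mean log2 CPM and its GC content, across genes, for each of the 18 HFD (red) and 18 Ctr (blue) livers at 16 weeks, by ZT in hours with the dark phase shaded. The 3 HFD livers at ZT9 lie at -0.507, -0.327 and -0.339, below all other libraries.

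In the HFD livers 2793 of 17409 genes were called rhythmic (16.0%), and 5229 had an unadjusted p below 0.05.
Among genes with a mean of at least 1 CPM the share was 21.7% (2624 of 12102), and below that level 3.18% (169 of 5307).
The median amplitude of the rhythmic genes was 0.38, with quartiles of 0.27 and 0.59.
An amplitude of at least 0.5 was reached by 921 genes (33%) and of at least 1 by 305 (10.9%).
The median standard error was 0.08 for the amplitude and 0.86 h for the peak time.
Most rhythms in these livers were thus shallow.
Of 1006 genes of transcription factors 143 were rhythmic (14.2%), with a median amplitude of 0.43 among those called.

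The count depended on the number of mice.
Fits without 1 replicate number, which hold 2 mice per time point, called 1045 to 1711 genes, and 610 of the 2793 genes (21.8%, median amplitude 0.56) were called in all 3 of them.
Fits without a single mouse called 2313 to 2825, and 1715 genes (61.4%) were called in all 18.
Without ZT17 1732 genes were called.
Across all 38 alternatives 574 genes (20.6%, median amplitude 0.56) kept their call, and 533 of these (92.9%) were also rhythmic in the Ctr livers.

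Peaks were spread over the whole day, and 2 windows held the most.
The dark phase held 1543 peaks (55.2%) and the light phase 1250, but in the fit shared with Ctr the dark phase held the smaller part (46.5%).
In windows of 4 h centred on the sampled times, 703 genes (25.2%) peaked between ZT19 and ZT23, before lights on, and 563 (20.2%) between ZT7 and ZT11, late in the light phase.
The window from ZT11 to ZT15, around lights off, held 486 genes (17.4%), that from ZT23 to ZT3 439 (15.7%), that from ZT15 to ZT19 323 (11.6%) and that from ZT3 to ZT7 279 (9.99%).
Of the genes with an amplitude of at least 0.5, 292 peaked between ZT19 and ZT23 and 97 between ZT3 and ZT7.
Of 120 genes with an amplitude of at least 1 that peaked between ZT19 and ZT23, 49 were not called without the muscle-rich ZT21 library of replicate 2.

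The genes of these 2 windows differed in base composition.
The rhythmic genes that peaked between ZT7 and ZT11 had a median GC content of 45.1% and those between ZT19 and ZT23 one of 54.5%, against 49.4% for all genes tested.
In the Ctr livers the medians of the 6 windows ranged from 48.4% to 51%.
With an offset per library that follows GC content, 2582 genes were called, 492 of them between ZT7 and ZT11 and 546 between ZT19 and ZT23, at median GC contents of 50.5% and 51%.
Without ZT9 2259 genes were called, with 356 and 448 in these windows at 48.7% and 52.4%, and 1853 of the 2793 genes (66.3%) were among them.
These 2 windows stayed the fullest with the offset. Both shrank by more than 1.5 times without ZT9, while that from ZT11 to ZT15 held 439 genes.
Other settings moved the windows as well. The window from ZT7 to ZT11 became the fullest in the fit shared with Ctr (990 genes, against 803 between ZT19 and ZT23) and among genes with at least 1 CPM in 3 libraries (690 against 674). Without ZT1 328 genes (13.4%) peaked between ZT7 and ZT11, the fewest of any window. Without ZT17 322 did so, with 389 between ZT19 and ZT23, 155 between ZT15 and ZT19 and 109 between ZT3 and ZT7. Without ZT5 the last 2 held 209 and 162, and without replicate 1 the window from ZT11 to ZT15 (250 genes) held more than that from ZT7 to ZT11 (215).

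**Figure D2:**
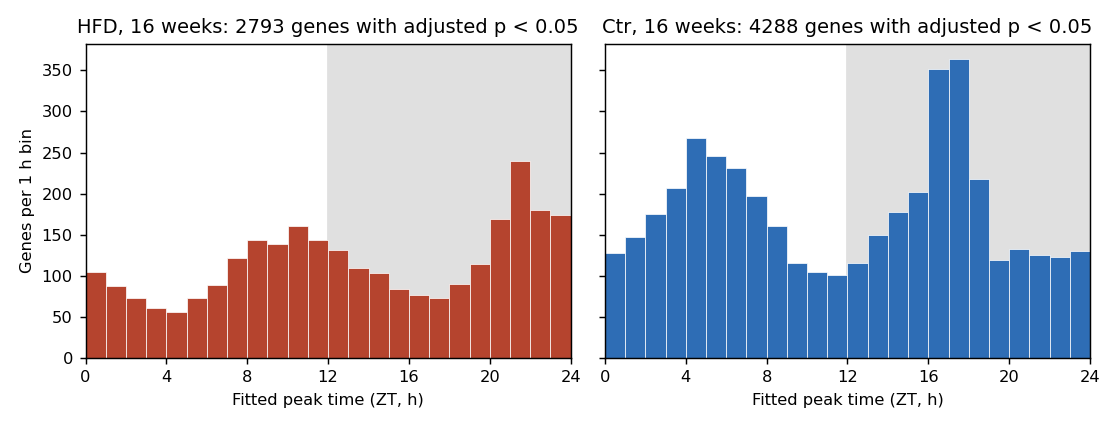
Number of rhythmic genes by fitted peak time in bins of 1 h, in ZT hours with the dark phase shaded, for the HFD livers (left, 2793 genes) and the Ctr livers (right, 4288 genes) at 16 weeks. In HFD the fullest window runs from ZT19 to ZT23 (703 genes), in Ctr from ZT15 to ZT19 (1136 genes).

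The clock activators Npas2, Arntl, Clock and Rora cycled in the HFD livers, with peaks late in the dark phase.
Npas2, a partner of BMAL1, had 12.8, 13.5 and 14.9 CPM at ZT1 and 0, 0.0641 and 0.0626 CPM at ZT13. The groups were far apart, and Npas2 had the highest amplitude of the clock genes (4.41, SE 0.31, peak at 23.4 h, adjusted p = 2.72e-10).
Arntl, which encodes BMAL1, had 24.8, 34 and 30 CPM at ZT21 and 0.807, 1.08 and 1.0 CPM at ZT9, a 30.7-fold difference of means without overlap (amplitude 2.34, peak at 21.5 h, adjusted p = 3.41e-07).
Clock, which encodes the usual partner of BMAL1, had a shallower rhythm with 54.6, 51.7 and 55.6 CPM at ZT21 and 27.8, 25.4 and 28.6 CPM at ZT9, again without overlap (amplitude 0.47, peak at 21.8 h, adjusted p = 8.88e-05).
Rora, whose product activates RORE-bearing genes, passed narrowly (amplitude 0.30, peak at 22.1 h, adjusted p = 0.0316), and the call was lost in 8 of the 18 fits without a single mouse (adjusted p up to 0.0779, without ZT21 replicate 3) and was 0.145 without ZT21.
In the fit without ZT9 the amplitudes of Arntl and Clock were 2.06 and 0.39, and the calls were kept.

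Of the 11 repressors 9 were rhythmic, against 16.0% of all genes tested, in an order that ran from the middle of the light phase to the end of the dark phase.
Nr1d1, the gene of REV-ERBα, led with 74.8, 71.1 and 71.8 CPM at ZT5 and 2.83, 1.14 and 1.33 CPM at ZT17 (amplitude 2.59, peak at 6.71 h, adjusted p = 5.75e-07).
Its relative Nr1d2 followed, with 114, 81.5 and 111 CPM at ZT9 and 12.6, 14 and 12.6 CPM at ZT21 (amplitude 1.66, peak at 8.99 h, adjusted p = 3.06e-09).
Around lights off came Ciart, a repressor of the BMAL1 complex, with 13.9, 12.3 and 10.2 CPM at ZT9 and 0.0613, 0.48 and 0.128 CPM at ZT1 (amplitude 2.69, peak at 11.3 h, adjusted p = 2.31e-06).
Per3 held 28.6, 23.7 and 25.1 CPM at ZT9 and 0.184, 1.02 and 0.192 CPM at ZT1 (amplitude 2.05, peak at 11.9 h, adjusted p = 3.67e-05).
Per2, which forms the repressor complex with the cryptochromes, had 61.4, 60.5 and 55.4 CPM at ZT17 and 7.97, 7.38 and 9.41 CPM at ZT1, a 7.16-fold difference (amplitude 1.53, peak at 14.3 h, adjusted p = 6.21e-08).
Cry2 had the smallest amplitude of these core repressors (amplitude 0.38, peak at 13.4 h, adjusted p = 0.000664), and Cry1, the late repressor, held 52.1, 58 and 61 CPM at ZT21 and 7.49, 4.94 and 4.19 CPM at ZT5 (amplitude 1.58, peak at 18.7 h, adjusted p = 2.96e-08).
Nfil3, which competes with DBP at D-boxes, closed the order with 85.9, 81.9 and 79.8 CPM at ZT1 and 14.7, 10.9 and 8.62 CPM at ZT9 (amplitude 1.17, peak at 21.3 h, adjusted p = 0.000134).
In none of these 8 genes did the mice of the highest and the lowest time point overlap.
Nr1d2, Ciart, Per3 and Nfil3 kept the calls in the fit without ZT9, with amplitudes of 1.76, 2.27, 1.82 and 0.87.

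The other 3 repressors were less certain.
Per1, an early responder to feeding and hormones, held 37.6, 39 and 39.2 CPM at ZT13 and 17.5, 21 and 15.1 CPM at ZT1 (amplitude 0.46, peak at 13.6 h, adjusted p = 0.0366), but the call was lost in 9 of the 18 fits without a single mouse (up to 0.0818, without ZT1 replicate 3) and was 0.28 without ZT1.
Bhlhe40, which represses E-box genes, was not called (amplitude 0.43, peak at 15.9 h, adjusted p = 0.149) although its highest and lowest times did not overlap, with 192, 134 and 126 CPM at ZT21 and 33.5, 59.3 and 75.9 CPM at ZT1.
Bhlhe41 was not called, with 5.76, 1.89 and 2.07 CPM at ZT9 and 0.184, 0 and 0.32 CPM at ZT1 (amplitude 0.74, peak at 10.3 h, adjusted p = 0.292, amplitude 0.44 without ZT9).
The 3 PAR bZIP factors of the D-box all cycled.
Dbp rose from 0.368, 0.60 and 0.448 CPM at ZT1 to 106, 67 and 89.6 CPM at ZT9, a 185-fold difference (amplitude 3.41, peak at 9.12 h, adjusted p = 4.90e-07).
Tef held 203, 185 and 208 CPM at ZT9 and 17.4, 22.8 and 20.3 CPM at ZT1 (amplitude 1.32, peak at 11.5 h, adjusted p = 2.26e-05), and Hlf 62.5, 64.7 and 63.4 CPM at ZT13 and 26.7, 29.6 and 26.2 CPM at ZT1 (amplitude 0.53, peak at 11.9 h, adjusted p = 2.26e-05).
Leaving out ZT9 gave amplitudes of 3.72 and 1.26 for Dbp and Tef, still called.
The call of Per1 was lost without ZT9 (adjusted p = 0.0659), with its amplitude still at 0.46.

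**Figure D3:**
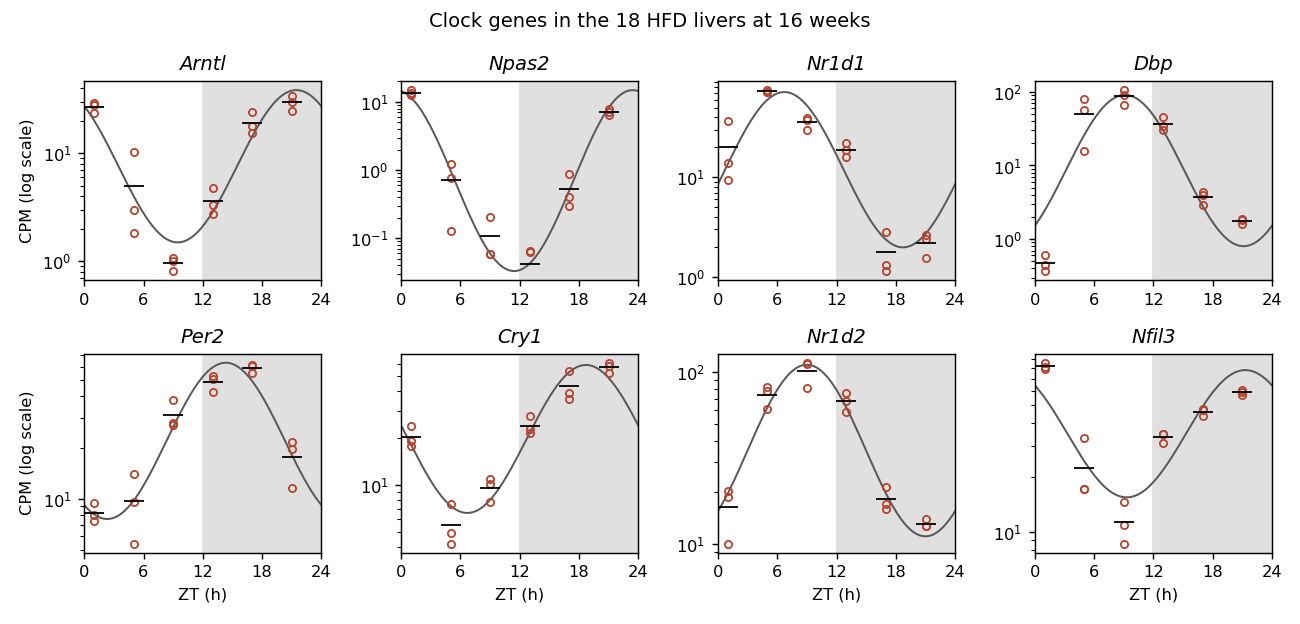
CPM on a log scale against ZT in hours for 8 clock genes in the 18 HFD livers at 16 weeks (circles, 1 per mouse; bars, mean of 3; line, fitted cosine of 24 h; dark phase shaded). Peaks run from Nr1d1 (6.71 h) through Nr1d2 (8.99 h), Dbp (9.12 h), Per2 (14.3 h) and Cry1 (18.7 h) to Nfil3 (21.3 h), Arntl (21.5 h) and Npas2 (23.4 h).

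In the Ctr livers 10 repressors and 3 PAR bZIP genes were called, against 24.6% of all genes.
Over the clock genes the lowest unadjusted p of a test for a different rhythm between the diets was 0.22 (Bhlhe41, amplitude 0.74 in HFD and 1.52 in Ctr), and the lowest adjusted p was 0.629.
In the HFD livers at 4 weeks 10 and 3 were called, against 12.9% of all genes.

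Promoter sequences show where letters known from this loop lie next to the starts of these genes.
RefSeq gave windows of 300 bases (250 before to 50 after the start, build GRCm38.p6) for 11793 of the genes tested, 2124 of them rhythmic.
The E-box CACGTG, which reads the same on both strands, lay in 7.15% of all 32851 windows read, the RORE TAGGTCA on either strand in 2.61% and the D-box TTATGTAA on either strand in 0.938%.
Counted per gene, 11.1% of those tested and 13.1% of the rhythmic ones had an E-box, and the share by peak window ran from 9.01% (ZT23 to ZT3) to 16.8% (ZT11 to ZT15).
A RORE was found in 2.55% of genes tested and in 4.73% of those that peaked between ZT19 and ZT23, and a D-box in 0.78% and in 1.62% of those between ZT11 and ZT15.
The CRE TGACGTCA was found in 3.32% of genes tested and 3.39% of rhythmic genes and the sterol element TCACNCCAC in 1.48% and 1.46%.
Of 9 repressors with a window, Bhlhe41, Ciart, Cry1 and Per1 held an E-box, as did Tef among 3 PAR bZIP genes, while 0 of 4 activators did.
The 6 genes of the clock output list with a window held 0 of the motifs searched.
These matches are descriptions of letters and show no binding.

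The windows below are those of Arntl (chr7:113207261-113207560, plus strand) and Nfil3 (chr13:52980990-52981289, minus strand), which peaked late in the dark phase and hold a RORE, read as TGACCTA in Nfil3, and of Per3 (chr4:151044616-151044915, minus strand) and Ciart (chr3:95882179-95882478, minus strand), which peaked around lights off and hold 2 D-boxes and 3 E-boxes. Each is written from 5′ to 3′ on the strand of the gene, with these motifs in capitals.
Arntl: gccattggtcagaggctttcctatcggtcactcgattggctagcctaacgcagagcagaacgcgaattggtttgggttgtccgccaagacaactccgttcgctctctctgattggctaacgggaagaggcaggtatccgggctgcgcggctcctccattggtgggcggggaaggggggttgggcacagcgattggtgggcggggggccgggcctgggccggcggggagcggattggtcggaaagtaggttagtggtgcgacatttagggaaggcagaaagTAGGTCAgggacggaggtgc
Nfil3: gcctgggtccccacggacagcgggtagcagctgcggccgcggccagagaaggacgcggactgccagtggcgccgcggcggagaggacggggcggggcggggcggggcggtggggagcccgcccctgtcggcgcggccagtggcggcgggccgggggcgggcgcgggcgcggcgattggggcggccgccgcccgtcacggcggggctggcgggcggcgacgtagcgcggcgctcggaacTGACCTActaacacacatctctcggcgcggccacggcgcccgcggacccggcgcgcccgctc
Per3: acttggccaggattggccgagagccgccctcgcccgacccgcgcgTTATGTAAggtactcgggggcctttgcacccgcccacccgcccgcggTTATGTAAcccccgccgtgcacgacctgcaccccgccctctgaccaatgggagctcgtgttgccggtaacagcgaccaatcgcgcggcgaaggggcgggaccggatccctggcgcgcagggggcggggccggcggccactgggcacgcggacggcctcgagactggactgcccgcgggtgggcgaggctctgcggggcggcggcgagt
Ciart: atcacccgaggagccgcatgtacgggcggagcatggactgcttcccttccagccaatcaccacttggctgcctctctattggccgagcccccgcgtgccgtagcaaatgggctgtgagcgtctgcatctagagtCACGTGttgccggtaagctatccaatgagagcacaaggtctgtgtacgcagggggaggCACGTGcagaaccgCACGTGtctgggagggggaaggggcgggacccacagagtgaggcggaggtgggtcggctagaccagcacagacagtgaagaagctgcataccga

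Genes known as outputs of the clock peaked around lights off.
All 7 genes of the output list were rhythmic, against 16.0% of all genes tested, and 6 of them peaked between ZT11 and ZT15, against 17.4% of all peaks, with a median amplitude of 1.03 against 0.24 over all genes tested.
Wee1, a kinase that holds back mitosis, had 21.1, 17 and 23.4 CPM at ZT9 and 2.64, 2.64 and 1.99 CPM at ZT1 (amplitude 1.56, peak at 12.4 h, adjusted p = 1.05e-07).
Nampt, the limiting enzyme of NAD salvage, had 140.2, 133 and 97.2 CPM at ZT13 and 32.4, 33.7 and 36.2 CPM at ZT1 (amplitude 0.98, peak at 13.3 h, adjusted p = 6.28e-07).
Por, which passes electrons to the cytochromes P450, held 697, 788 and 875 CPM at ZT13 and 214, 202 and 182 CPM at ZT1 (amplitude 0.90, peak at 12.5 h, adjusted p = 5.23e-06).
Upp2, a uridine phosphorylase, peaked before the others with 697, 822 and 679.5 CPM at ZT9 and 120.2, 128 and 75.7 CPM at ZT1 (amplitude 1.29, peak at 10.7 h, adjusted p = 1.27e-05).
Usp2, a deubiquitinase, held 57.3, 53.1 and 51.5 CPM at ZT13 and 3.07, 4.08 and 4.23 CPM at ZT1, a 14.2-fold difference (amplitude 1.78, peak at 13 h, adjusted p = 3.42e-05).
In each of the 5 genes the mice at the highest and lowest times did not overlap.
In the fit without ZT9 the amplitudes of Wee1 and Upp2 were 1.41 and 1.04, and the calls were kept.

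Genes of fatty acid synthesis were rhythmic in 16 of 18 cases, against 16.0% of all genes tested, 9 of them with a peak between ZT15 and ZT19, 3 between ZT11 and ZT15, 3 between ZT19 and ZT23 and 1 between ZT23 and ZT3.
The median amplitude over the 18 was 0.71, and 12 were called in Ctr, against 24.6% of all genes.
Thrsp, a lipogenic regulator, rose from 67.3, 189.5 and 107 CPM at ZT5 to 2462, 2085 and 2069 CPM at ZT17, an 18.2-fold difference without overlap (amplitude 1.74, peak at 15.9 h, adjusted p = 3.77e-05).
Pnpla3, a lipid hydrolase, went from 0, 0.0674 and 0.059 CPM at ZT9 to 2.47, 5.38 and 1.79 CPM at ZT17 (amplitude 2.65, peak at 19.6 h, adjusted p = 1.05e-05).
Elovl6, which elongates palmitate, held 187, 254 and 263 CPM at ZT17 and 57.3, 75.8 and 91.4 CPM at ZT5 (amplitude 0.91, peak at 14 h, adjusted p = 1.56e-05).
Fads2, a fatty acid desaturase (amplitude 0.68, peak at 11.7 h, adjusted p = 1.19e-05), peaked just before lights off, and Elovl5, which elongates polyunsaturated fatty acids, just after lights on, with 624, 914 and 628 CPM at ZT1 and 255, 274 and 278 CPM at ZT13 (amplitude 0.77, peak at 0.152 h, adjusted p = 1.05e-05).
Mlxipl, the gene of the carbohydrate sensor ChREBP, was not called (amplitude 0.19, peak at 23.6 h, adjusted p = 0.257).
Without ZT17 10 of the 18 were called. With the GC offset 16 were called, 6 with a peak between ZT15 and ZT19 and 6 between ZT11 and ZT15. The fit without ZT9 also called 16, with 7 and 4 in these windows.
Pnpla3 kept the call in the fit without ZT9, with an amplitude of 2.44.

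Cholesterol synthesis was rhythmic in 9 of 21 genes, against 16.0% of all genes tested, and all 9 peaked in the dark phase, which held 55.2% of all peaks.
Pmvk, the phosphomevalonate kinase, had 121, 101 and 144 CPM at ZT21 and 29.2, 48.9 and 42.2 CPM at ZT9 without overlap (amplitude 0.90, peak at 20.3 h, adjusted p = 8.60e-07).
Lss, which closes the sterol rings, held 134, 173 and 117 CPM at ZT17 and 45.2, 59.7 and 38 CPM at ZT5 (amplitude 0.56, peak at 18.6 h, adjusted p = 0.00912), and Dhcr7, the enzyme of the last step, 158, 207 and 168 CPM at ZT17 and 93.6, 115 and 78.8 CPM at ZT5 (amplitude 0.45, peak at 20.5 h, adjusted p = 0.0069).
The count depended on single time points, with 13 of 21 without ZT9 and 3 without ZT17 (adjusted p = 0.145 for Lss).
Of 12 genes of bile acid synthesis and transport 6 were rhythmic, against 16.0% of all genes tested, and 3 without ZT1.
Abcb11, the export pump for bile salts, held 617, 473 and 564 CPM at ZT1 and 308, 275 and 186 CPM at ZT13 (amplitude 0.53, peak at 1.33 h, adjusted p = 0.000117), and Slc10a1, the uptake carrier, 495, 799 and 630.2 CPM at ZT9 and 421, 319 and 439.6 CPM at ZT21 (amplitude 0.31, peak at 11.4 h, adjusted p = 0.00864).
Cyp8b1, the 12α-hydroxylase, peaked at lights on (amplitude 0.69, peak at 0.0489 h, adjusted p = 0.0108, and adjusted p = 0.090 without ZT1), while Cyp7a1, the limiting enzyme, passed narrowly (amplitude 0.76, peak at 12.8 h, adjusted p = 0.0481), and its call was lost in 13 of the 18 fits without a single mouse (up to 0.153, without ZT13 replicate 2) and was 0.111 without ZT9.
Leaving out ZT9 gave amplitudes of 1.02 and 0.25 for Pmvk and Slc10a1, still called.

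Fatty acid oxidation was rhythmic in 7 of 20 genes, against 16.0% of all genes tested, and 4 of the 7 peaked between ZT7 and ZT11, as did 5 of the 8 called without ZT9.
Cpt1a, which admits fatty acids to mitochondria, held 417, 467 and 584 CPM at ZT13 and 228, 188 and 225 CPM at ZT17 (amplitude 0.67, peak at 9.06 h, adjusted p = 5.69e-06).
Ppara, the receptor that drives this programme in fasting, had 88.5, 108 and 151 CPM at ZT9 and 51.3, 34.2 and 48.8 CPM at ZT1 (amplitude 0.67, peak at 10.6 h, adjusted p = 4.39e-05).
Plin2, a coat protein of lipid droplets, peaked early in the day with 836, 732 and 555 CPM at ZT5 and 220.2, 202 and 267 CPM at ZT13 (amplitude 0.62, peak at 2.63 h, adjusted p = 0.000734).
Pdk4, which blocks the use of pyruvate, peaked before lights on with 12, 56 and 25 CPM at ZT21 and 3.69, 5.59 and 6.08 CPM at ZT9 (amplitude 1.18, peak at 22.6 h, adjusted p = 0.00123).
In these 4 genes the highest and lowest times did not overlap.
Of 12 genes of gluconeogenesis 1 was called, near the 16.0% of all genes tested, which was Fbp1 (amplitude 0.22, peak at 14.2 h, adjusted p = 0.0232), and its call was lost without ZT1 replicate 1 or ZT1 replicate 2 (adjusted p = 0.0649) and was 0.195 without ZT1.
Without ZT1 0 of the 12 were called by edgeR (2 at an unadjusted p below 0.05), and 2 without ZT5, ZT13 or ZT17.
Pck1 and G6pc, the first and last enzymes of the path, had adjusted p-values of 0.472 and 0.954.
In the fit without ZT9 the amplitudes of Ppara and Pdk4 were 0.68 and 0.97, and the calls were kept.

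Glycogen genes were rhythmic in 7 of 8 cases, against 16.0% of all genes tested, with peaks in 4 of the 6 windows.
Gys2, the liver glycogen synthase, had 312, 271 and 290.4 CPM at ZT9 and 80.2, 95 and 81.7 CPM at ZT1 (amplitude 0.96, peak at 10.7 h, adjusted p = 1.12e-07), and Ugp2, which makes its substrate, 386, 386 and 372 CPM at ZT9 and 194, 169.5 and 196 CPM at ZT21 (amplitude 0.52, peak at 8.72 h, adjusted p = 2.22e-06).
Both peaked before lights off.
Ppp1r3b and Ppp1r3c, which bring a phosphatase to glycogen, peaked in the night at 18.2 h and 22 h, with 639, 578 and 416 CPM at ZT17 and 173, 184 and 128 CPM at ZT5 for the former (amplitudes 0.80 and 0.86, adjusted p = 2.18e-06 and 0.000331).
In NAD metabolism 8 of 16 genes were called, against 16.0% of all genes tested, 4 with the GC offset and 3 without ZT13 or ZT17. The 8 include Nampt, which is also in the clock output list.
Nmrk1, a nicotinamide riboside kinase, peaked at the same time as Nampt, with 27.5, 36.5 and 43.1 CPM at ZT13 and 10.4, 10.4 and 8.0 CPM at ZT1 (amplitude 0.95, peak at 13.3 h, adjusted p = 5.06e-07).
Kynu, of the path from tryptophan, peaked after lights on (amplitude 0.34, peak at 2.12 h, adjusted p = 0.00559, and adjusted p = 0.0851 without ZT13).
In autophagy 6 of 13 were called, against 16.0% of all genes tested, led by Gabarapl1, of the autophagosome membrane, with 472, 417 and 420.0 CPM at ZT5 and 109.7, 121 and 133 CPM at ZT17 (amplitude 0.73, peak at 4.72 h, adjusted p = 8.13e-06).
Bnip3, a mitophagy receptor, peaked near lights off (amplitude 0.53, peak at 11.9 h, adjusted p = 0.000237), and Sqstm1, a cargo receptor, near lights on (amplitude 0.43, peak at 0.785 h, adjusted p = 6.24e-05).
Gys2 and Ugp2 kept the calls in the fit without ZT9, with amplitudes of 0.97 and 0.49.

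Heat shock genes peaked together in the night, when body temperature of mice is high.
Of 18 genes 12 were rhythmic, against 16.0% of all genes tested, all between ZT11 and ZT23 (6 between ZT15 and ZT19), with a median amplitude over the 18 of 0.41, and 6 without ZT5.
Hspa4l, a chaperone of the HSP110 family, had 37.4, 46 and 48.9 CPM at ZT17 and 20.6, 25 and 15.7 CPM at ZT5 (amplitude 0.54, peak at 18.5 h, adjusted p = 0.000392).
Stip1, which links HSP70 to HSP90, had 114, 132 and 133 CPM at ZT17 and 59, 70.9 and 54.9 CPM at ZT5 (amplitude 0.45, peak at 19.2 h, adjusted p = 0.000426).
Hsp90aa1, the inducible HSP90, had 329, 380.2 and 444 CPM at ZT17 and 139, 174 and 116 CPM at ZT5 (amplitude 0.57, peak at 17.3 h, adjusted p = 0.00177, 0.0585 without ZT17).
Hspa1a, the inducible HSP70, had 8.54, 6.73 and 15.1 CPM at ZT13 and 1.73, 1.28 and 1.16 CPM at ZT5 (amplitude 1.11, peak at 14.8 h, adjusted p = 0.00246, 0.0554 without ZT13 with an amplitude of 0.64).
Both cold-inducible RNA-binding genes of the list were called, against 16.0% of all genes tested, at different times of day.
Cirbp held 17.7, 18.4 and 16.6 CPM at ZT5 and 7.64, 6.01 and 5.77 CPM at ZT17 (amplitude 0.54, peak at 3.79 h, adjusted p = 0.00281), a call lost without ZT5 (adjusted p = 0.156, amplitude 0.30), and Rbm3 30.3, 25.1 and 31.6 CPM at ZT13 and 13.4, 9.12 and 16.1 CPM at ZT1 (amplitude 0.61, peak at 12.2 h, adjusted p = 0.000245).

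Genes of protein folding in the endoplasmic reticulum peaked around lights on.
Of 22 genes 13 were rhythmic, against 16.0% of all genes tested, 8 between ZT23 and ZT3 and 5 between ZT19 and ZT23.
Calr, a calcium-binding chaperone, held 929.6, 1014 and 1129 CPM at ZT1 and 526, 515 and 544 CPM at ZT13 (amplitude 0.49, peak at 0.0316 h, adjusted p = 2.59e-05).
Sdf2l1, of the chaperone complex in the lumen, held 102, 85.3 and 182 CPM at ZT1 and 25.9, 33.8 and 26.4 CPM at ZT9 (amplitude 0.96, peak at 0.0273 h, adjusted p = 0.000111).
The disulfide isomerase Pdia4 held 319, 247 and 469 CPM at ZT1 and 134, 134 and 143 CPM at ZT9 (amplitude 0.57, peak at 23.3 h, adjusted p = 0.000561), and Pdia6 had a shallower rhythm (amplitude 0.30, peak at 2.72 h, adjusted p = 0.00215).
Hspa5, the main chaperone of the compartment, was not called (amplitude 0.37, peak at 22.4 h, adjusted p = 0.183).
In Calr, Sdf2l1 and Pdia4 the highest and lowest times did not overlap.
Without ZT9 5 of the 22 were called and without ZT13 replicate 1 8.
Immediate early genes, which respond within minutes to stimuli, were called in 6 of 11 cases, against 16.0% of all genes tested, 4 between ZT23 and ZT3.
Egr1, a zinc finger factor, rose to 102, 119 and 83.4 CPM at ZT1 from 2.95, 6.39 and 2.45 CPM at ZT17, a 25.8-fold difference (amplitude 2.15, peak at 1.04 h, adjusted p = 2.79e-05), and its amplitude was 1.15 without ZT1.
Fos held 3.62, 4.68 and 5.31 CPM at ZT1 and 1.44, 1.01 and 0.413 CPM at ZT9 (amplitude 1.18, peak at 23.6 h, adjusted p = 0.000558), and Ier2 31.5, 52.5 and 41.8 CPM at ZT1 and 16.4, 14.4 and 15.8 CPM at ZT9 (amplitude 0.54, peak at 23.3 h, adjusted p = 0.00352, amplitude 0.32 without ZT1).
Fosb was low and uneven, with 5.54, 5.6 and 0.199 CPM at ZT21 and 0.0576, 0.0674 and 0.177 CPM at ZT9 (amplitude 2.19, peak at 20.9 h, adjusted p = 0.00324, and adjusted p = 0.583 without ZT21).
Leaving out ZT9 gave amplitudes of 0.83, 0.51, 1.21, 0.47 and 2.24 for Sdf2l1, Pdia4, Fos, Ier2 and Fosb, still called.

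**Figure D4:**
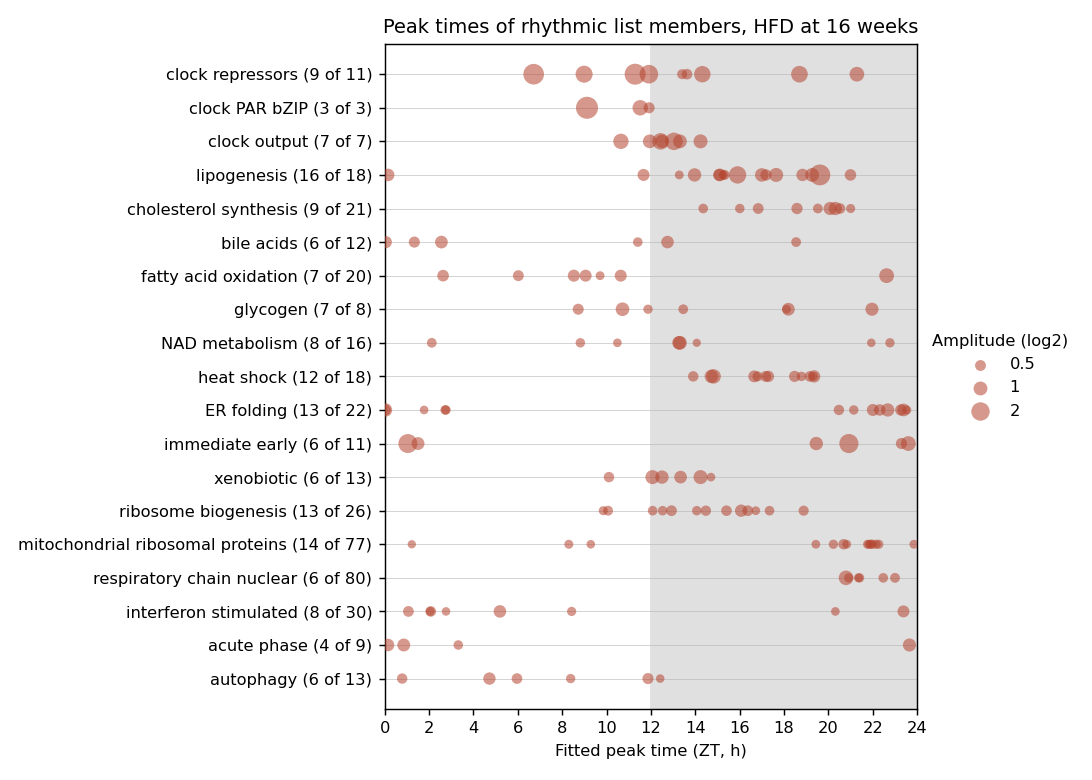
Fitted peak time in ZT hours of each rhythmic member of the gene lists in the 18 HFD livers at 16 weeks, with the number called of those tested beside each list, point size rising with amplitude in log2 units and the dark phase shaded. All 12 called heat shock genes and 14 of the 16 called lipogenic genes lie in the dark phase, genes of endoplasmic reticulum folding (13 of 22) around lights on.

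Drug metabolism was rhythmic in 6 of 13 genes, against 16.0% of all genes tested, 5 between ZT11 and ZT15, with 8 called without ZT9 replicate 1. Por and Alas1, both among these 5, also belong to the clock output list.
Cyp2a5, a coumarin hydroxylase, held 1642, 1241 and 1004 CPM at ZT13 and 411, 223 and 317 CPM at ZT1 (amplitude 1.03, peak at 12.1 h, adjusted p = 1.22e-06).
Cyp2e1, which oxidises ethanol and is abundant in liver, held 9309, 9172 and 11020 CPM at ZT13 and 5147, 3712 and 5712 CPM at ZT21 (amplitude 0.43, peak at 10.1 h, adjusted p = 0.000984).
Abcb1a, an export pump, held 6.39, 4.17 and 6.38 CPM at ZT13 and 1.21, 2.25 and 1.93 CPM at ZT5 (amplitude 0.78, peak at 13.3 h, adjusted p = 0.00188), and the xenobiotic receptor genes Nr1i2 and Nr1i3 were not called (adjusted p = 0.357 and 0.134).
Of 9 glucocorticoid targets 2 were called (22.2%, near the 16.0% of all genes tested), and 3 without ZT13 or ZT21.
Fkbp5, a co-chaperone of the receptor, held 104, 138 and 114 CPM at ZT13 and 28.3, 31.4 and 34.5 CPM at ZT1 without overlap (amplitude 0.92, peak at 14 h, adjusted p = 1.70e-06).
Mt1, a metallothionein, held 48.7, 94.1 and 268 CPM at ZT5 and 24.2, 22.7 and 12.9 CPM at ZT17 (amplitude 1.12, peak at 3.16 h, adjusted p = 0.047), a call lost in 10 of the 18 fits without a single mouse (0.142 without ZT5 replicate 3) and at 0.24 without ZT17.
Zbtb16 and Tsc22d3, other targets of the receptor, were not called (adjusted p = 0.259 and 0.262).

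Sex-biased genes were tested because growth hormone sets them in liver.
Of 10 male-biased genes 4 were rhythmic, against 16.0% of all genes tested, and 2 without ZT5 or without ZT17.
Elovl3, a fatty acid elongase, held 1063, 966 and 1041 CPM at ZT1 and 68.3, 105 and 62.9 CPM at ZT9, a 13-fold difference without overlap (amplitude 1.88, peak at 22.9 h, adjusted p = 2.00e-08).
Selenbp2 held 1635, 1178 and 1364 CPM at ZT17 and 668, 394 and 490.1 CPM at ZT5 (amplitude 0.59, peak at 16.7 h, adjusted p = 0.0209), a call lost in 3 fits without a single mouse (0.0561 without ZT5 replicate 2) and at 0.283 without ZT5.
Of 13 female-biased genes 5 passed the filter on low counts and 2 were called, against 16.0% of all genes tested, namely Cyp2a4 and Acot3.
Cyp2a4, a steroid hydroxylase, had 114, 1.01 and 2.54 CPM at ZT9 and at most 0.72 CPM at ZT1, and without ZT9 replicate 1 its amplitude went from 3.09 to 0.93 and its adjusted p from 0.0028 to 0.102.
Acot3, a peroxisomal thioesterase, had 15.7, 5.19 and 3.13 CPM at ZT9, and without the same mouse its amplitude went from 1.14 to 0.98 and its adjusted p from 0.0146 to 0.0505, and to 0.152 without ZT1.
Among 8 genes of growth hormone signalling, 3 were called, against 16.0% of all genes tested, and 5 without ZT1 replicate 1 or without ZT13 replicate 3.
Stat5b, the main mediator of the hormone, held 88, 87.6 and 84.2 CPM at ZT1 and 31.2, 31.5 and 46.8 CPM at ZT9 (amplitude 0.54, peak at 23.7 h, adjusted p = 0.00014).
Cish, a feedback inhibitor, had 31.7, 4.75 and 3.98 CPM at ZT17 (amplitude 1.5, peak at 17.1 h, adjusted p = 0.0285), and 0.111 without ZT17 replicate 1.
In the fit without ZT9 the amplitudes of Elovl3, Acot3 and Stat5b were 1.70, 1.28 and 0.43, and the calls were kept.
The calls of Cyp2a4 and Cish were lost without ZT9 (adjusted p = 0.169 and 0.113). The amplitude of Cyp2a4 went from 3.09 to 0.90 in that fit, and that of Cish from 1.5 to 1.42.

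Ribosome biogenesis was rhythmic in 13 of 26 genes, against 16.0% of all genes tested, 11 of them between ZT11 and ZT19.
Nop2, a methyltransferase of ribosomal RNA, held 20.3, 34.8 and 29.7 CPM at ZT13 and 14.7, 14.4 and 16.6 CPM at ZT5 (amplitude 0.45, peak at 15.4 h, adjusted p = 0.000743), and the nucleolar protein gene Ncl 164, 192 and 177 CPM at ZT13 and 108, 106 and 124 CPM at ZT1 (amplitude 0.31, peak at 12.5 h, adjusted p = 0.000789).
Rrp12, an export factor of ribosomal subunits, held 16.6, 16.1 and 16.1 CPM at ZT17 and 4.15, 4.17 and 5.28 CPM at ZT5 (amplitude 0.73, peak at 16.1 h, adjusted p = 0.00226, 0.0579 without ZT5).
Without ZT17 6 of the 26 were called, and 1 without replicate 2.
Of 18 proliferation genes 1 was called, against 16.0% of all genes tested (2 without ZT1 replicate 1, ZT9 replicate 3 or ZT21 replicate 2, and 3 without ZT21), Rrm2, which makes deoxynucleotides, with 9.95, 12.4 and 10.9 CPM at ZT13 and 3.13, 3.96 and 3.14 CPM at ZT1 (amplitude 0.71, peak at 14.2 h, adjusted p = 0.000547).
Interferon-stimulated genes were called in 8 of 30 cases, against 16.0% of all genes tested, 5 of them between ZT23 and ZT3, and in 5 without ZT13 replicate 1 or ZT21 replicate 3 and 4 without ZT17 or ZT21.
Usp18, which removes the ubiquitin-like ISG15, held 6.28, 9.18 and 17.3 CPM at ZT5 and 4.21, 2.79 and 2.92 CPM at ZT17 (amplitude 0.76, peak at 5.19 h, adjusted p = 0.0012), and Cmpk2, a mitochondrial nucleotide kinase, 6.87, 4.8 and 8.13 CPM at ZT1 and 2.33, 3.2 and 1.94 CPM at ZT13 (amplitude 0.66, peak at 23.4 h, adjusted p = 0.00178).

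Among the mice at ZT1, several acute phase genes were highest in the same mouse. Over the whole list, the mean deviation from the mean level was highest in a mouse at ZT5 (0.739, in log2 units). At ZT1 it was at most 0.494.
Of 9 genes 4 were called, against 16.0% of all genes tested, and 2 without the ZT1 mouse of replicate 1.
Saa2, a serum amyloid, had 68.1, 13.5 and 13.2 CPM at ZT1, Orm2, an acid glycoprotein, 42.7, 6.9 and 11.7 CPM at ZT1, and Lcn2, which binds siderophores, 27.9, 9.3 and 5.89 CPM at ZT1, with the same mouse highest in each.
Their adjusted p-values were 0.0216, 0.0273 and 0.0383, and 0.0969, 0.204 and 0.204 without it.
Over all 18 fits without a single mouse the call was lost in 1 for Saa2, 3 for Orm2 and 7 for Lcn2.
Saa3, a serum amyloid of macrophages outside this list and named for its amplitude, had 111, 8.76 and 8.77 CPM at ZT1, and went from an amplitude of 1.41 (adjusted p = 0.0101) to 0.50 (0.202).
Fgb, a fibrinogen chain, did not depend on it, with 4031, 3531 and 5600 CPM at ZT5 and 2662, 2791 and 2443 CPM at ZT13 (amplitude 0.31, peak at 3.32 h, adjusted p = 0.0149, 0.119 without ZT13).
Without ZT13 0 of the 9 were called by edgeR, with 5 at an unadjusted p below 0.05.
The calls of Saa2, Orm2 and Lcn2 were lost without ZT9 (adjusted p = 0.0596, 0.0868 and 0.0824), but the amplitudes did not fall. They were 0.958, 0.822 and 0.881, against 0.858, 0.819 and 0.765 with all mice.

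Large families of translation and respiration had fewer called members in the HFD than in the Ctr livers.
Of 77 cytosolic ribosomal proteins 1 was called in HFD and 60 in Ctr, of 80 nuclear genes of the respiratory chain 6 and 63, of 77 mitochondrial ribosomal proteins 14 and 46, and of 13 genes of the mitochondrial genome 2 and 10, against 16.0% of all genes tested in HFD and 24.6% in Ctr.
In HFD these were 1.3%, 7.5%, 18.2% and 15.4%, so that the shares of the last 2 families were near that of all genes.
Cox7a1, of complex IV and 1 of the 6, rested on the muscle-rich library, and without ZT21 replicate 2 its amplitude went from 1.14 to 0.53 and its adjusted p from 0.0142 to 0.162 (0.117 without ZT9).
The test for a different rhythm between the diets gave an unadjusted p below 0.05 for 37, 56, 33 and 11 of them, against 12.0% of all genes tested, and the lowest adjusted p was 0.225 in each family.
No gene of these families therefore passed the test of a difference. Deviations from the mean level were also ranked against gene length, across genes within a library. This rank correlation was 0.135 to 0.291 at ZT5 and -0.382 to -0.17 at ZT17 in Ctr. In HFD it was -0.196 to 0.0479 at ZT5 and -0.117 to 0.149 at ZT17. The part of gene length in these counts was not tested.
Median amplitudes in HFD over the tested members were 0.12, 0.13, 0.10 and 0.16. Rps2, of the small ribosomal subunit, was the cytosolic protein called, with 700.1, 687 and 782 CPM at ZT21 and 502, 587 and 420.2 CPM at ZT9 (amplitude 0.23, peak at 21.2 h, adjusted p = 0.0132, 0.0925 without ZT9).
Ndufv3, of complex I, held 83.5, 81 and 100.3 CPM at ZT21 and 57.6, 57.8 and 37.7 CPM at ZT9 (amplitude 0.35, peak at 23 h, adjusted p = 0.00511), against a peak at 18 h in Ctr (adjusted p of the difference 0.225).
Atp5o, of the ATP synthase, held 94.6, 101 and 110.3 CPM at ZT21 and 66.6, 62.4 and 52.4 CPM at ZT9 (amplitude 0.29, peak at 21.4 h, adjusted p = 0.0123, 0.22 without ZT9), with a Ctr peak at 17.4 h.
Mrpl34, of the mitochondrial ribosome, held 62.3, 57.9 and 62.6 CPM at ZT17 and 31.4, 30.9 and 27.7 CPM at ZT9 (amplitude 0.43, peak at 20.7 h, adjusted p = 0.000478, amplitude 0.28 without ZT9).
Ndufv3 kept the call in the fit without ZT9, with an amplitude of 0.24. In that fit the amplitudes of Rps2 and Atp5o were 0.15 and 0.16, and their calls were lost.

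These families varied between the 3 mice of a time point most at ZT9.
The mean deviation of the 80 respiratory genes was between -0.63 and 0.13 in the 3 mice at ZT9 and between 0.06 and 0.28 at ZT21, in log2 units, and that of the 77 cytosolic ribosomal proteins between -0.62 and 0.14 at ZT9. In these 3 libraries the rank correlation with gene length was 0.0971, -0.227 and 0.471. Their quality weights from limma were 0.586, 0.418 and 0.609, against 0.616 to 1.57 in the other HFD libraries.
Without ZT9, 0 cytosolic ribosomal proteins by edgeR (6 at an unadjusted p below 0.05), 2 nuclear respiratory genes and 5 mitochondrial ribosomal proteins were called in HFD, and 46, 56 and 33 in Ctr.
With the GC offset the counts were 4, 7 and 7 in HFD and 63, 62 and 53 in Ctr.
Single mice moved them as well, with 8 cytosolic proteins and 13 respiratory genes without ZT5 replicate 3 and 5 mitochondrial ribosomal proteins without ZT9 replicate 1.
Without ZT5 7 cytosolic proteins and 15 respiratory genes were called, and without ZT17 4 mitochondrial ribosomal proteins.
Of the mitochondrial genome, mt-Co3, of complex IV, had 319, 222 and 752 CPM at ZT21 (amplitude 0.76, peak at 21.6 h, adjusted p = 0.034), and 0.167 without ZT21 replicate 3.
Its call was lost in 8 of the 18 fits without a single mouse, and was at 0.402 without ZT21.
The other call, of mt-Atp8, was lost in 5 such fits (up to 0.0855, without ZT21 replicate 3) and was 0.283 without ZT9, and without ZT17 0 of the 13 genes were called by edgeR (4 at an unadjusted p below 0.05).

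The genes with the largest amplitudes in each window, by the naming rule, included clock genes and genes whose call was lost without 1 mouse. Spon2, Derl3, Unc93a2, Clec2h, Ces2b and Lingo4 were neither, and kept their calls in every alternative.
Between ZT23 and ZT3 Spon2, a secreted matrix protein, stood beside Npas2 and Egr1, with 16.6, 20.8 and 16.1 CPM at ZT1 and 2.33, 2.5 and 1.69 CPM at ZT13 without overlap (amplitude 1.41, peak at 0.499 h, adjusted p = 4.19e-06).
Between ZT3 and ZT7 Derl3, of the degradation of misfolded proteins, had 8.75, 21.3 and 10.1 CPM at ZT5 and 1.62, 1.01 and 2.65 CPM at ZT17 (amplitude 1.34, peak at 5.26 h, adjusted p = 0.000184).
Unc93a2 held 3.97, 4.11 and 4.9 CPM at ZT5 and 0.481, 0.697 and 0.862 CPM at ZT17 (amplitude 1.19, peak at 4.78 h, adjusted p = 0.000563), and Clec2h, a lectin-like receptor gene, 14.2, 16.5 and 27.3 CPM at ZT5 and 5.35, 3.8 and 2.19 CPM at ZT17 (amplitude 1.12, peak at 5.97 h, adjusted p = 0.00147).
Between ZT7 and ZT11 Rgs16, an inhibitor of G protein signals that responds to fasting, had 18.3, 67.2 and 161 CPM at ZT5 and 2.89, 4.75 and 9.75 CPM at ZT17 (amplitude 1.73, peak at 7.91 h, adjusted p = 0.0282), a call lost in 5 fits without a single mouse (0.0676 without ZT5 replicate 3) and at 0.16 without ZT17.
In the same window Mup8, a urinary pheromone carrier, had 0.922, 117 and 44.4 CPM at ZT9 (amplitude 2.21, peak at 8.15 h, adjusted p = 0.00569), and 0.0623 without ZT9 replicate 2 and 0.643 without ZT9.
Between ZT11 and ZT15 Ces2b, a carboxylesterase, held 1.56, 12.5 and 3.9 CPM at ZT9 and 0.576, 0 and 0.58 CPM at ZT5 (amplitude 2.06, peak at 12.6 h, adjusted p = 0.00171).
Between ZT15 and ZT19 Lingo4, a leucine-rich repeat protein, had 4.81, 3.42 and 4.38 CPM at ZT17 and 0.749, 0.385 and 0.387 CPM at ZT5 (amplitude 1.71, peak at 17.8 h, adjusted p = 8.52e-07).
Onecut1, a hepatocyte factor, had 64.3, 15.3 and 4.58 CPM at ZT17 (amplitude 1.70, peak at 16.2 h, adjusted p = 0.0144), and 0.0731 without ZT17 replicate 1. Its amplitude without that mouse was 1.453, and that of Rgs16 without ZT5 replicate 3 was 1.446.
Leaving out ZT9 gave an amplitude of 1.89 for Ces2b, still called, and of 0.43 for Mup8, not called.

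The largest amplitudes between ZT19 and ZT23 belonged to muscle genes of a single library.
Tnni2, of the troponin complex of fast muscle, had 0.0644, 86.5 and 0.199 CPM at ZT21, and its amplitude of 10.5 (adjusted p = 0.000199) was 0.75 (0.555) without ZT21 replicate 2.
Actn3, an actinin of fast fibres, had 0, 23.3 and 0 CPM at ZT21 and went from 4.74 (adjusted p = 0.00369) to 1.15 (0.305).
Nrap, of muscle attachment, had 0.0644, 17 and 0.133 CPM at ZT21 and went from 3.46 (0.00517) to 0.91 (0.302), and Flnc, a muscle filamin, had 0.258, 19 and 0.199 CPM at ZT21 and went from 3.36 (0.00326) to 0.75 (0.491).
Mylpf, a myosin light chain of the added muscle list, went from 0.0055 to 0.721.
The rhythm calls of these 5 genes thus rested on that library.

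A component of 12 h, tested beside the 24 h terms, was called in 57 of 17409 genes (0.327%), 33 of which also had a 24 h rhythm.
By DESeq2 328 genes were called, and without 1 replicate number 0 to 11, and with all mice kept 488 were called with no filter on low counts and 28 with the GC offset. The size of this group thus depended on the tool, the filter, the offset and the number of mice.
Nfil3, the repressor of D-box genes, was among the 6 with the lowest p (12 h amplitude 0.60, adjusted p = 0.00755).
Eepd1, a nuclease-like protein, had 26.8, 26.1 and 26.1 CPM at ZT5 and 10.3, 7.82 and 9.38 CPM at ZT13 (12 h amplitude 0.61, adjusted p = 0.00167) and no 24 h call (adjusted p = 0.383).
mt-Nd4l, of complex I, held 70.8, 84.5 and 66.7 CPM at ZT17 and 25.4, 14.2 and 17.9 CPM at ZT9 (12 h amplitude 0.86, adjusted p = 0.00946).
Lars2, a mitochondrial leucine tRNA ligase, held 805, 600.4 and 613 CPM at ZT17 and 42.4, 60.8 and 77 CPM at ZT9 (12 h amplitude 0.96, adjusted p = 0.0144), and its 24 h call (adjusted p = 0.00916) was at 0.17 without ZT17.
Lars2 followed CT010467.1 and Gm23935 in being lowest at ZT9 and highest at ZT17.
Rapgef4 and Rusc2 completed the 6 (adjusted p = 0.0144 and 0.0144).
The 24 h call of Lars2 was lost without ZT9 (adjusted p = 0.0936), with an amplitude of 0.72 against 1.15.

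Against the Ctr livers of the same age, fewer genes were called in HFD.
In Ctr 4288 of 17409 genes were called (24.6%), with a median amplitude of 0.32 and 51.5% of the peaks in the dark phase.
The Ctr peaks gathered between ZT15 and ZT19 (1136 genes, 26.5%) and between ZT3 and ZT7 (952, 22.2%), the windows that were least filled in HFD.
The edgeR common biological coefficient of variation was 0.209 in HFD and 0.18 in Ctr.
Without ZT9 2259 genes were called in HFD and 2992 in Ctr, the latter fit chosen after the data were seen.
Both lists shared 1747 genes, 62.5% of those called in HFD and 40.7% of those in Ctr.
Among the shared genes the peak in HFD was later by a median of 0.30 h, the median distance between the peaks was 1.05 h, and 76.5% lay within 2 h.
Amplitudes of the shared genes had medians of 0.40 in HFD and 0.38 in Ctr, and 1022 of the 1747 were larger in HFD.
In 6 shared genes the peaks were more than 6 h apart, each with a diet interaction above the threshold (adjusted p from 0.225 to 0.239).

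The test of a different rhythm between the diets called 0 of 17409 genes by edgeR (0.00%), with 2094 at an unadjusted p below 0.05 (12.0%), and 1 gene by DESeq2, the melanin enzyme gene Dct, named after its values were seen (adjusted p = 0.0153).
Of the 1046 genes called in HFD and not in Ctr, 300 had an unadjusted interaction p below 0.05 and 335 an unadjusted rhythm p below 0.05 in Ctr.
In this edgeR fit, being called in one diet and not in the other was thus no sign of a tested difference for any of them.
Among rhythmic genes of HFD the lowest interaction p belonged to Ak1, an adenylate kinase (adjusted p = 0.225), with 0.193, 17.9 and 0.266 CPM at ZT21, again the muscle-rich library, without which its HFD rhythm was not called (adjusted p = 0.247). With no filter on low counts the interaction of Ak1 was called (adjusted p = 0.0293).
Elob, of the elongin complex, peaked at 23.1 h in HFD and 17.2 h in Ctr (adjusted p of the interaction 0.225), but its HFD call (adjusted p = 0.0416) was lost in 12 of the 18 fits without a single mouse (up to 0.104, without ZT13 replicate 2) and was 0.0775 without ZT9.
Kif3b, a kinesin motor, held 15.1, 18.2 and 16.6 CPM at ZT9 and 11.5, 8.4 and 9.09 CPM at ZT1 and peaked at 12 h in HFD and 6.42 h in Ctr (adjusted p of the interaction 0.225).
Adamtsl5, of the extracellular matrix, peaked at 20.8 h and 14.8 h (adjusted p of the interaction 0.225, HFD rhythm at adjusted p = 0.0821 without ZT21).
Ppara, the fasting receptor, peaked at 10.6 h in HFD and 7.7 h in Ctr, with similar amplitudes of 0.67 and 0.65 (adjusted p of the interaction 0.234).
In the fit without ZT9 the amplitude of Kif3b was 0.32, and the call was kept.

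In the HFD livers at 4 weeks 2161 of 16776 genes were called (12.9%), with a median amplitude of 0.48 and a common biological coefficient of variation of 0.271.
Of these, 1112 were also called at 16 weeks, 51.5% of the 4-week list and 39.8% of the 16-week list.
The median difference of their peaks, 16 minus 4 weeks, was -0.564 h, with a median distance of 1.09 h and 77.2% within 2 h, and their median amplitude was 0.45 at 16 weeks and 0.52 at 4 weeks.
The 2 ages are in separate tables, so age and processing cannot be told apart.
The interaction of age with the rhythm called 1 of 16444 genes (0.00608%), with 1918 at an unadjusted p below 0.05 (11.7%).
That gene was Mup8, with an amplitude of 2.21 and a peak at 8.15 h at 16 weeks and 3.62 and 19.9 h at 4 weeks (adjusted p = 0.00423), and its 16-week rhythm was not called without ZT9 (0.643).
Without the ZT21 mouse of replicate 3 at 4 weeks, which carries conflicting ages in its labels, the interaction called 0 genes by edgeR, with 1486 at an unadjusted p below 0.05 and Mup8 at an adjusted p of 0.2.
By DESeq2 with all mice 40 genes were called.
Lars2 peaked at 19.6 h with amplitude 1.15 at 16 weeks and was not called at 4 weeks (adjusted p = 0.11, and 0.13 for the interaction).
G6pdx, the first enzyme of the pentose phosphate path, held 20.2, 12.5 and 10.9 CPM at ZT21 and 4.48, 4.74 and 2.81 CPM at ZT13 at 16 weeks (amplitude 0.82, peak at 21.6 h, adjusted p = 0.000155) and was not called at 4 weeks (adjusted p of the interaction 0.13).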

How the data were processed

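Liver mRNA of 18 HFD mice at 16 weeks was analysed, with 18 Ctr mice of that age and 18 HFD mice at 4 weeks for comparison. Per the labels and the paper, the deposited values are counts per gene that the authors made with HISAT2 2.0.5 (GRCm38, also named mm10) and featureCounts 1.5.0-p3 on an Ensembl annotation, in 1 table per age, with no normalization. Per-sample values were read from the 54532 genes of each table, and 2 columns that match no sample used here were left out. The depth was 15263275 to 17133063 counts per HFD library at 16 weeks.

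A gene was tested when it had counts in 50% or more of the Ctr libraries and also in 50% or more of the HFD libraries of an age (17409 genes at 16 weeks). Cosine and sine terms of 24 h (and of 12 h beside them) were fitted with edgeR 4.0.16 (TMM normalization, quasi-likelihood F test) in R 4.3.3, and p-values were adjusted over all genes tested by Benjamini-Hochberg, with a threshold of 0.05. Differences by maternal diet or age were tested as interactions of the group with both terms. Alternatives were DESeq2 1.42.0, limma 3.58.1 (voom with quality weights), other filters and size factors, an offset per library from GC content (GENCODE M21, for 54409 genes), the replicate number as a block, a fit shared with Ctr, ZT as a factor, and leaving out replicates, mice or time points. The fit was also run on simulated data, and no result from that run is used here. The mouse of replicate 3 at ZT21 among the HFD mice at 4 weeks carries an age of 16 weeks in 1 field and 4 weeks in its title, and was kept as 4 weeks. Tables and figures were made with Python 3.11.15.

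The members and gene lists were chosen with earlier results of these data known. Named were all clock genes, up to 4 members per list with the lowest p (with members named for their role), the 4 protein-coding genes with the largest amplitude in each peak window of 4 h (mean of at least 1 CPM), the 6 with the lowest p for 12 h, and the 4 rhythmic genes with the lowest p of each interaction. Muscle genes, Mylpf and Dct were named after their values were seen. The muscle list, and fits without ZT9 for Ctr and for the diet interaction, were also added then.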

Additional observations from a re-analysis of the deposited data

Results flagged for a closer look

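Mup8, which encodes a carrier of urinary pheromones in male liver, was called by edgeR's test of the interaction of age with the rhythm in the HFD mice of 16 and of 4 weeks (adjusted p = 0.00423). The call was lost without the 4-week mouse of conflicting age label (0.2), with the replicate number as a block (0.101) and without replicate 1, 2 or 3 (0.0658, 0.27 and 0.0895). It was kept by DESeq2 (4.31e-06), with no filter (5.28e-06), with at least 1 CPM (0.00186) and with the GC offset (0.00828). Its peak fell at 8.15 h at 16 weeks (amplitude 2.21) and at 19.9 h at 4 weeks (amplitude 3.62). At 16 weeks the 3 mice at ZT9 held 0.922, 117 and 44.4 CPM, and without ZT9 the rhythm there was not called (adjusted p = 0.643). The 2 ages stand in separate tables, so age and table cannot be told apart.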

How the results depend on the processing

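Of the 126 named rhythmic genes 63 kept their call in every alternative run. The named genes gave 5605 comparisons with an alternative. In 5091 the gene stayed called or stayed not called, in 430 it lost the call and in 80 it gained one. Moves of the peak were counted only for genes called in the main fit, and in 4 comparisons the peak moved by more than 6 h. The last were Actn3 without replicate 2 (adjusted p = 0.513), without ZT21 replicate 2 (0.305) and without ZT21 (0.555), and Mylpf without ZT21 (0.767). Over the fits without a replicate or a mouse the adjusted p of Actn3 ran from 0.00179 to 0.513. The cause was not tested beyond the muscle genes of that library.

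The number of rhythmic genes in HFD at 16 weeks was 1732 without ZT17 and 1297 at an adjusted p below 0.01, where the stricter threshold lowers it. Fits that left out a replicate or a mouse gave 1045 to 2825 for these livers. Fits without a replicate gave 2107 to 2384 for Ctr and 560 to 1490 for HFD at 4 weeks, where 1911 were called without the mouse of conflicting label. Each of these fits had fewer samples. Lists shrank in the fits without a replicate, at the lowest to 11 of 18 genes of fatty acid synthesis, 6 of 18 of heat shock, 3 of 22 of folding in the endoplasmic reticulum, 2 of 21 of cholesterol synthesis, 2 of 16 of NAD metabolism, 2 of 30 interferon-stimulated, 1 of 26 of ribosome biogenesis, 2 of 77 mitochondrial ribosomal proteins, 1 of 80 respiratory genes, 2 of 12 of bile acids, 3 of 20 of fatty acid oxidation, 3 of 13 of autophagy, 3 of 11 immediate early, 5 of 8 of glycogen, 5 of 13 of drug metabolism, 2 of 10 male-biased and 1 of 8 of growth hormone signalling. All 4 acute phase calls were lost without replicate 1 or 2. The 12 h count was 328 by DESeq2, 488 with no filter, 28 with the GC offset and 0 to 11 without a replicate. The diet interaction was called in 1 gene by DESeq2 (Dct), 3 with no filter (Dct, Ak1 and Usp13), 1 without ZT9 (Dct) and 0 without any replicate. The age interaction was called in 40 genes by DESeq2, 48 with no filter, 3 with at least 1 CPM (Adipoq, Plin1 and Mup8), 0 without the mouse of conflicting label and 0 to 84 without a replicate. With the replicate number as a block, 2469 genes were rhythmic in HFD, 4350 in Ctr and 2560 in HFD at 4 weeks, 72 had a 12 h component, and 0 and 2 (Sult1d1 and Srp54b) differed by diet and age. Replicate numbers were not treated as pairs in the main fits, since residuals of libraries with the same number had a mean correlation of 0.0123 and those with different numbers one of -0.00621. Within the same number it ran from -0.346 to 0.324, and 9 of 18 libraries had their best match there. The cause of these differences was not tested.

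The median amplitude, 0.379, was 0.427 with no filter, 0.346 with at least 1 CPM and 0.334 in the fit shared with Ctr. A fit with ZT as a factor gives no amplitude or peak of its own, so those of the main fit were used. Over the genes called with ZT as a factor their median was 0.343. The median amplitude was 0.451 at an adjusted p below 0.01, and 0.439, 0.431, 0.442 and 0.444 without ZT1, ZT13, ZT17 and ZT21. Without a replicate or a mouse it ran from 0.364 to 0.541. The share of peaks in the dark phase, 55.2%, was 51.4% by DESeq2, 50.4% with at least 1 CPM, 52.6% with the GC offset, 52.5% with RLE size factors, 46.5% in the fit shared with Ctr and 52.1% without ZT13, and ran from 51.1% to 56.8% without a replicate or a mouse. With 3 mice per time point and this depth, genes below 1 CPM were called in 3.18% of cases.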

Other observations

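Rhythms were also found outside protein-coding genes of the HFD livers at 16 weeks. Of 593 long intergenic noncoding RNA genes 58 were rhythmic (9.78%), of 539 antisense genes 26 (4.82%) and of 1124 processed pseudogenes 33 (2.94%), against 2621 of 14068 protein-coding genes (18.6%). The counts of pseudogenes and antisense genes are uncertain, since they share sequence or position with other genes. In 6 genes called in both diets the peaks lay more than 6 h apart, among them Farp2, a guanine exchange factor (11.3 h in HFD and 5.24 h in Ctr, adjusted p of the interaction 0.225), and Adtrp, a lipid hydrolase (8.54 h and 14.7 h, 0.239). Both were named after their values were seen.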
